A study of Homo sapiens with 12 samples.

Results

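HT1080 cells, an established human fibrosarcoma line that carries a mutant NRAS gene, were compared after an siRNA against that mutant and after a control siRNA, both in the presence of poly(dA:dT). The comparison covered 6 of the 12 libraries of the series. The siQ61K group with poly(dA:dT) had 3 libraries, and the siNC group with poly(dA:dT) had 3 libraries. In the other 6 libraries the same siRNAs were combined with DMSO, with 3 libraries each, and these entered the same model. Genes were kept where at least 3 of the 6 poly(dA:dT) libraries held at least 1 TPM (the share of transcripts that a gene takes in its library, scaled for transcript length and to a fixed total), which left 13578 of 55243 genes. At the edge of this filter, 621 genes were at 1 TPM or more in exactly 3 libraries and 799 in exactly 2. Of the former, 141 passed only through the 3 siQ61K libraries and 76 only through the 3 siNC libraries, so these had to differ. RASGRP3, IFI44L, IFIH1, IFNE, CXCL11, TNFSF10, NUPR1, CCN5, AGT, LINC02154 and WFDC21P below are among the 141. Only 1 siRNA against NRAS is named in the labels, and what else it targets cannot be told apart from the loss of NRAS. They give no dose, no time and no way of delivery for either agent. They also do not say whether the 3 replicates were grown separately, and p-values therefore describe the spread among libraries that may be technical repeats.

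RAS proteins are membrane-bound switches that pass growth signals through the kinases RAF, MEK and ERK, and a mutant that cannot be switched off keeps ERK active. ERK then drives transcription factors of the immediate early and ETS families, and also the phosphatases and Sprouty proteins that brake it. Poly(dA:dT) is a synthetic double-stranded DNA. In the cytosol such DNA binds cGAS, which signals through STING, and RNA polymerase III can copy it into an RNA that binds RIG-I. Both routes lead to type I interferon, whose receptor acts through a complex that holds STAT2 and IRF9. That complex binds the interferon-stimulated response element (ISRE) in the promoters of antiviral genes.

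Antiviral genes that answer to interferon rose as a group in this comparison, so the promoter windows of 3 of them are shown first. The windows come from RefSeq (build GRCh38.p14), and each is the 250 bases before the annotated start, on the strand of the gene. The 3 members with a single annotated window, a match and the highest fold change were IFI44L (chr1:78620198-78620447, plus strand), IFIT1 (chr10:89392373-89392622, plus strand) and IFI6 (chr1:27672193-27672442, minus strand). Capitals mark matches to the core of the ISRE, which reads TTTC, then any 2 bases, then TTTC, on either strand.
IFI44L: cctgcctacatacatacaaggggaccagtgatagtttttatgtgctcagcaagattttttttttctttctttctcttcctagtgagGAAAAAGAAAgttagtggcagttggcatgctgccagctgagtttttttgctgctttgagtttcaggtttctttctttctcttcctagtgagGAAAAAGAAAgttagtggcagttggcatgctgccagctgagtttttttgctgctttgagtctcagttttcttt
IFIT1: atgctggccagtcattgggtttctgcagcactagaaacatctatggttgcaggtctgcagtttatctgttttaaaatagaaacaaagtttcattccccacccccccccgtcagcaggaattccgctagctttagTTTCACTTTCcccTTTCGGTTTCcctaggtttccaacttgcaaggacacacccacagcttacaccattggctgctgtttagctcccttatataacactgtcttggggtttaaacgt
IFI6: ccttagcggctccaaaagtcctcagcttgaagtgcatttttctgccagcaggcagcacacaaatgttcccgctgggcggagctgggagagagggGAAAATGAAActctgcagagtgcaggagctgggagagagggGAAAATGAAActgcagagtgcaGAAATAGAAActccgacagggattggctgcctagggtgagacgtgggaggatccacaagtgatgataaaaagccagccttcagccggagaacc
The IFI44L window held 2 matches, which began 164 and 73 bases before the start. In the IFIT1 window 2 matches lay 116 and 103 bases before the start. The IFI6 window held 3 matches, at 156, 115 and 93 bases. A window was found for 9907 of the 13578 genes tested, and a gene with alternative starts counted as holding the motif where any of its windows did. The core was present in 21 of 31 matched members of the list of IFIT and IFI antiviral effectors (67.7%), in 10 of 17 of the PARP, TRIM and GBP genes (58.8%) in 8 of 16 antigen presentation genes (50%), in 3 of 6 ISGylation genes (50%) and in 1 of 5 of the OAS and PKR list (20%). Among all matched genes that rose under the knockdown 77 of 915 held it (8.42%). It was present in 341 of the 9907 genes tested (3.44%) and in 1061 of the 35116 windows of the table (3.02%). These matches describe letters and show no binding.

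Knockdown was seen in every library. NRAS was counted at 42.97, 45.9 and 51.7 TPM in the siNC libraries and 20.1, 20.3 and 23.5 TPM in the siQ61K libraries (log2 fold change -1.10 with SE 0.16, adjusted p = 0.000356). The groups did not overlap, and the exact permutation test gave p = 0.1, the smallest it can give for 3 libraries against 3. TPM does not separate the mutant from the normal allele. HRAS, a related RAS gene, did not pass the test. It had 92.8 ± 10.5 TPM with siNC and 80.6 ± 13.995 TPM with siQ61K (SD, n = 3 libraries a group here and below) and a log2 fold change of -0.21, adjusted p = 0.268.

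Of 24 listed genes of the RAS pathway, all 24 passed the filter, 1 of them (RASGRP3) only through the siQ61K libraries. Of the 24, 2 rose, RASGRP3 among them, and 2 fell. Across all genes tested, 9.42% rose and 14.1% fell. RRAS2, a RAS-related GTPase, went from 93.7, 92.7 and 104 TPM to 148, 172 and 167 TPM (log2 fold change 0.74 with SE 0.12, adjusted p = 0.000903). RASGRP3, an exchange factor that loads RAS with GTP, rose from under 1 TPM, at 0.141, 0.0353 and 0.786 TPM in the siNC libraries and 2.54, 3.71 and 3.33 TPM in the siQ61K libraries (log2 fold change 1.70 with SE 0.33, adjusted p = 0.00268). Given how it passed the filter, RASGRP3 had to be higher under siQ61K. MAP2K1, which encodes the kinase MEK1, fell with NRAS, at 102, 96.5 and 101 TPM in the siNC libraries and 73.8, 58.7 and 71.8 TPM in the siQ61K libraries (log2 fold change -0.55 with SE 0.11, adjusted p = 0.00266). The exchange factor SOS1 did not pass the test, at 6.13 ± 1.54 TPM with siNC and 6.67 ± 0.944 TPM with siQ61K (log2 fold change 0.12, adjusted p = 0.753). Without siQ61K replicate 1 the number of the 24 genes that fell was 5.

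In all, 3196 of 13578 genes (23.5%) differed at an adjusted p under 0.05 in limma, 1279 higher (9.42%) and 1917 lower (14.1%) under siQ61K. Of these, 383 were higher and 425 lower by at least 1 on the log2 scale, and 60 were higher and 17 lower by at least 2. Counts of genes that rose or fell in a list are to be set beside 9.42% and 14.1%. Without siQ61K replicate 2 there were 951 higher and 1224 lower genes, and without siQ61K replicate 1 there were 1363 and 2476. Fold changes are on the log2(TPM + 1) scale, which understates those of low genes. Within groups the libraries correlated at 0.966 to 0.981 across genes, and between the groups at 0.939 to 0.958. On the second principal component siQ61K replicate 1 (36.5) stood apart from replicates 2 (-19.6) and 3 (-5.17). Transcripts of the mitochondrial genome made up 2.26, 2.46 and 2.66% of the TPM under siNC and 2.69, 4.45 and 3.38% under siQ61K, and the mean GC content weighted by TPM was 50.7, 50.2 and 49.9% against 50.1, 49.2 and 48.98%.

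The fold change was lower for transcripts of higher GC content (Spearman's rho -0.258 across 13533 genes, which are not independent replicates). With the genes split by GC content into 4 bins of equal size, the lowest bin held 378 higher and 239 lower calls, while the highest held 193 and 816. After every library was corrected for the GC content and length of transcripts, 3959 genes (29.3%) were called, 2013 higher and 1946 lower. Of the calls above, 2789 were made the same way after correction (20.5% of genes, 9.11% higher and 11.4% lower), 400 were lost and 0 turned round. The share of higher calls was 40.02% as deposited, 51.1% with median-of-ratios scaling, 50.3% with quantile normalization and 50.8% after the correction, so the balance of higher and lower genes depends on the scaling.

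**Figure D1:**
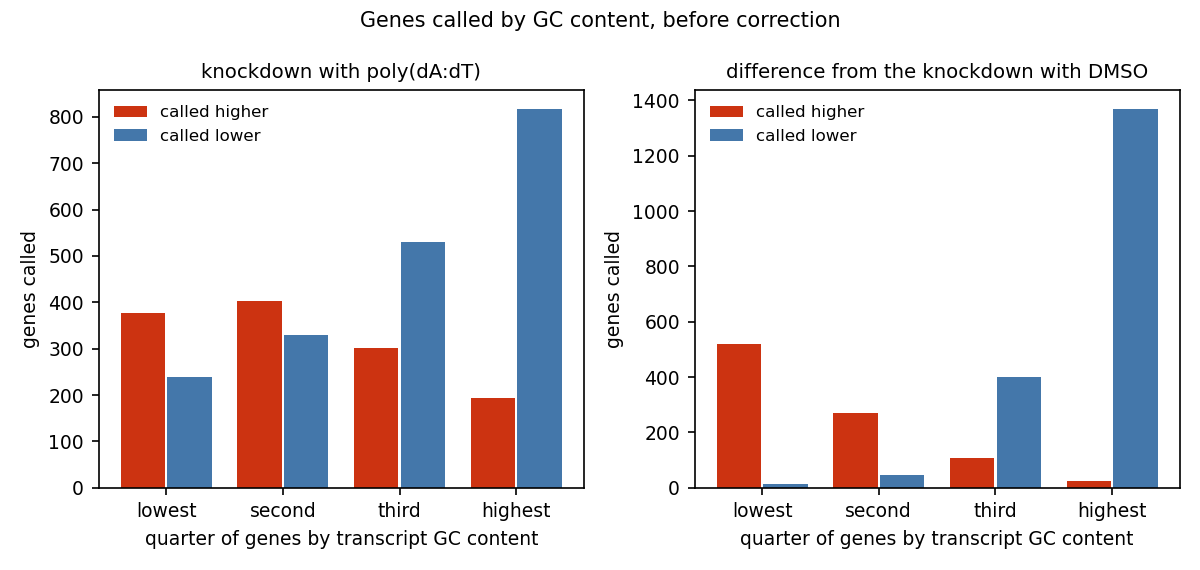
Numbers of genes called higher (red) and lower (blue) in each of 4 bins of genes by transcript GC content, on the left for siQ61K against siNC with poly(dA:dT) and on the right for the difference between that change and the change with DMSO. With poly(dA:dT), lower calls go from 239 in the lowest bin to 816 in the highest, and in the difference from 13 to 1367.

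Antiviral effector genes rose together under the knockdown. Of 38 listed IFIT and IFI effectors, 37 passed the filter, 2 of them only through the siQ61K libraries. Of these 37, 32 rose and 0 fell, with a median log2 fold change of 1.65, against -0.07 over all genes tested. With any 1 library left out, between 31 and 32 rose. These genes encode proteins that block entry, translation or assembly of viruses. In bulk RNA a change in all cells and a change in a share of the cells cannot be told apart.

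IFI44L, an interferon-induced antiviral protein, showed the highest log2 fold change among them. It had 0.753, 0.4702 and 0.8999 TPM in the siNC libraries and 26.9, 24.6 and 27.8 TPM in the siQ61K libraries (log2 fold change 4.01 with SE 0.19, adjusted p = 2.47e-08). IFIT1, which binds viral RNA that lacks a methylated cap, was counted at 43.1, 31.4 and 48.5 TPM in the siNC libraries and 542, 535 and 440.2 TPM in the siQ61K libraries (log2 fold change 3.61 with SE 0.15, adjusted p = 1.57e-08), a 12.3-fold ratio of the means. IFIT3, its binding partner, had 9.96, 6.34 and 9.07 TPM in the siNC libraries and 119, 93.7 and 86.8 TPM in the siQ61K libraries (log2 fold change 3.42 with SE 0.18, adjusted p = 5.52e-08). In IFIT1 and IFIT3 the lowest siQ61K library lay far above the highest siNC library. Such a lack of overlap with siQ61K higher held for 16.0% of all genes tested. IFI44L passed the filter only through the siQ61K libraries, so its lack of overlap was fixed in advance and adds nothing here.

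IFI6, a membrane protein that limits flavivirus replication, was more abundant, at 119, 83.9 and 84.4 TPM in the siNC libraries and 1054, 1069.7 and 895 TPM in the siQ61K libraries (log2 fold change 3.39 with SE 0.16, adjusted p = 2.47e-08). IFI27, a related small membrane protein, had 50.6, 29.5 and 42.6 TPM in the siNC libraries and 407, 477 and 359 TPM in the siQ61K libraries (log2 fold change 3.33 with SE 0.26, adjusted p = 1.96e-06). MX1 and MX2 are GTPases that trap viral capsids. MX1 was at 4.45, 2.95 and 3.83 TPM in the siNC libraries and 45.8, 33.02 and 29.5 TPM in the siQ61K libraries (log2 fold change 2.96 with SE 0.21, adjusted p = 8.16e-07). MX2 was at 1.78, 0.817 and 0.806 TPM in the siNC libraries and 17.9, 22.3 and 13.3 TPM in the siQ61K libraries (log2 fold change 3.14 with SE 0.31, adjusted p = 1.31e-05). RSAD2, or viperin, makes a chain-terminating nucleotide, and had 2.49, 1.14 and 1.23 TPM in the siNC libraries and 20.8, 21.5 and 15.8 TPM in the siQ61K libraries (log2 fold change 2.98 with SE 0.24, adjusted p = 2.23e-06). The siQ61K libraries lay above the siNC libraries without overlap for these genes, as for 16.0% of all genes tested.

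IFIT2 rose with its family, at 3.88 ± 0.825 TPM with siNC and 28.97 ± 3.14 TPM with siQ61K (log2 fold change 2.63 with SE 0.20, adjusted p = 1.81e-06). IFI44, the neighbour in name of IFI44L, rose from 16.9, 12.4 and 16.5 TPM to 139, 151 and 132 TPM (log2 fold change 3.13 with SE 0.15, adjusted p = 2.47e-08). Not every effector rose: IFITM2, an abundant membrane protein that blocks viral fusion, was at 696, 587 and 622 TPM in the siNC libraries and 737, 673 and 567 TPM in the siQ61K libraries (log2 fold change 0.05, adjusted p = 0.794). Its groups overlapped, and its reads can be shared with the near-identical IFITM1 and IFITM3. N4BP1 (log2 fold change -0.11, adjusted p = 0.65) and APOL2 (0.34, adjusted p = 0.156) did not pass the test either.

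**Figure D2:**
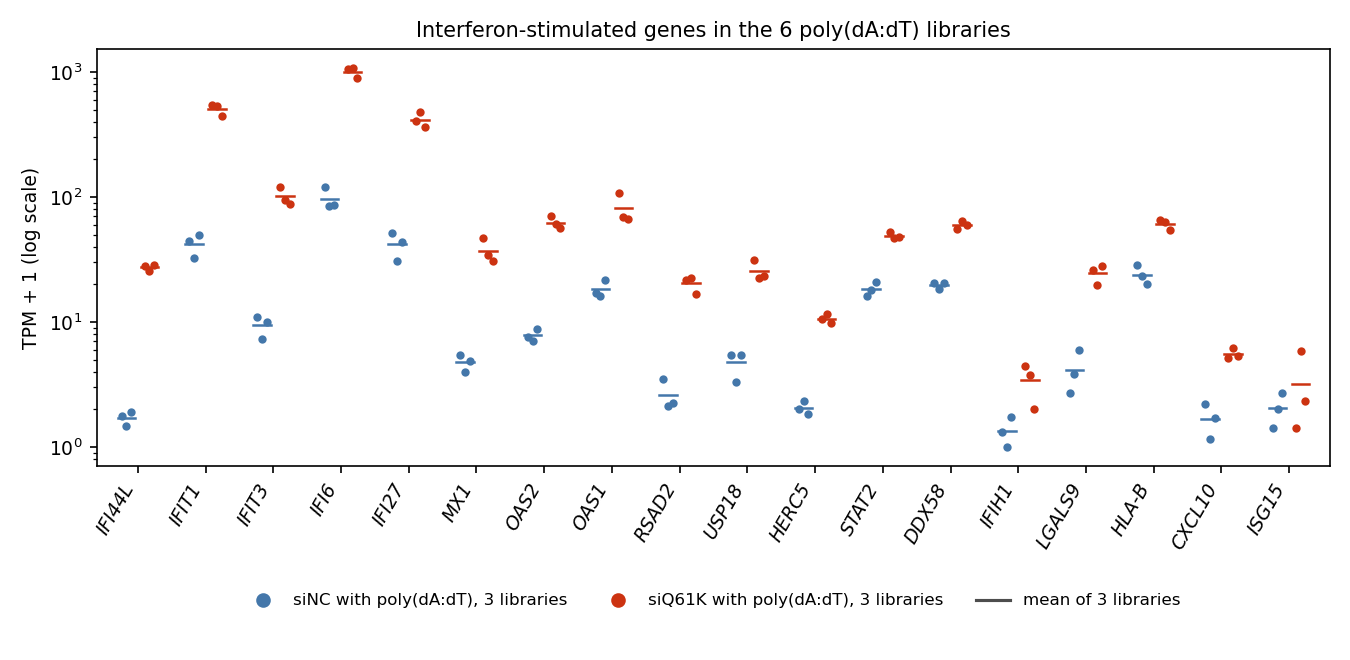
TPM + 1 on a log axis of 18 interferon-related genes in the 3 siNC (blue) and 3 siQ61K (red) libraries with poly(dA:dT), with the mean of each group as a line. The red points lie above the blue points for every gene except ISG15, whose siQ61K libraries span 0.424 to 4.901 TPM. IFI44L and IFIH1 passed the filter only through the siQ61K libraries, so for them this was fixed in advance.

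The OAS enzymes sense double-stranded RNA and make a messenger that leads to RNA decay, and PKR stops translation when it binds double-stranded RNA. In this group 7 of 8 measured genes rose and 0 fell. OAS2 had 6.56, 6.06 and 7.84 TPM in the siNC libraries and 69.3, 59.2 and 55.5 TPM in the siQ61K libraries (log2 fold change 2.99 with SE 0.16, adjusted p = 5.65e-08). OAS1 had 16.1, 15.2 and 20.5 TPM in the siNC libraries and 107, 68.2 and 66.03 TPM in the siQ61K libraries (log2 fold change 2.13 with SE 0.20, adjusted p = 1.15e-05). OAS3 (1.78, SE 0.22) and OASL (2.03, SE 0.25) followed in log2 fold change. EIF2AK2, which encodes PKR, rose less, at 14.6, 15.6 and 17.3 TPM in the siNC libraries and 32.8, 28.99 and 31.1 TPM in the siQ61K libraries (log2 fold change 0.93 with SE 0.16, adjusted p = 0.00104).

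ISG15 is a ubiquitin-like protein that a small set of enzymes attaches to other proteins. Of 8 measured genes of this system, 6 rose and 0 fell. USP18, the protease that removes ISG15 and also blocks the interferon receptor, was at 4.46, 2.32 and 4.46 TPM in the siNC libraries and 30.2, 21.3 and 22.3 TPM in the siQ61K libraries (log2 fold change 2.45 with SE 0.25, adjusted p = 2.05e-05). HERC5, the main ISG15 ligase, had 1.01, 1.34 and 0.823 TPM in the siNC libraries and 9.49, 10.5 and 8.75 TPM in the siQ61K libraries (log2 fold change 2.37 with SE 0.20, adjusted p = 4.25e-06). The conjugating enzyme UBE2L6 was abundant in both groups and rose, at 71.4, 77.2 and 76.5 TPM in the siNC libraries and 211, 181 and 175 TPM in the siQ61K libraries (log2 fold change 1.32 with SE 0.11, adjusted p = 4.15e-06). HERC6 (1.62, SE 0.18), the activating enzyme UBA7 (0.88, SE 0.18) and the ligase TRIM25 (0.78, SE 0.19) also rose, values again being log2 fold changes. ISG15 was listed at 0.414, 1.02 and 1.72 TPM in the siNC libraries and 0.424, 4.901 and 1.31 TPM in the siQ61K libraries, which is low beside its enzymes, and did not pass the test (log2 fold change 0.44, adjusted p = 0.498). How transcripts were summed to symbols is not given in the sources used here, and whether reads of ISG15 were lost in that step was not tested, so both its level and its missed test are uncertain. ISG20, an exonuclease, was at 48.5, 49.8 and 46.7 TPM in the siNC libraries and 64.6, 40.6 and 39.7 TPM in the siQ61K libraries (-0.04, adjusted p = 0.899).

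Among PARP, TRIM and GBP genes, 16 of 22 measured genes rose and 0 fell. Of the 22, 1 passed the filter only through the siQ61K libraries. PARP9, which works with DTX3L in the interferon response, had 15.3, 15.4 and 16.2 TPM in the siNC libraries and 89.3, 73.4 and 74.9 TPM in the siQ61K libraries (log2 fold change 2.26 with SE 0.13, adjusted p = 8.55e-08). PARP14, an ADP-ribosyltransferase, had 8.21 ± 1.22 TPM with siNC and 30.5 ± 2.03 TPM with siQ61K (log2 fold change 1.78, SE 0.19). GBP1, a GTPase that coats intracellular pathogens, was at 7.995, 7.902 and 9.17 TPM in the siNC libraries and 36.2, 41.8 and 34.02 TPM in the siQ61K libraries (log2 fold change 2.03 with SE 0.17, adjusted p = 4.15e-06). TRIM22, a restriction factor of retroviruses, had 16.4 ± 1.95 TPM with siNC and 50.9 ± 2.48 TPM with siQ61K (log2 fold change 1.58, SE 0.16). LGALS9, the lectin galectin-9, had 1.72, 2.82 and 4.94 TPM in the siNC libraries and 25.1, 18.8 and 26.9 TPM in the siQ61K libraries (log2 fold change 2.62 with SE 0.31, adjusted p = 6.37e-05), and near-identical copies of it can share its reads. TRIM5 (log2 fold change 0.09, adjusted p = 0.622), TRIM14 (0.12, adjusted p = 0.721) and GBP2 (0.35, adjusted p = 0.127) did not pass the test.

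The signalling proteins upstream of these genes moved in part. Of 20 measured genes of the interferon receptor and its signalling, 5 rose and 0 fell. STAT2, a transducer of the type I receptor, had 15.1, 16.9 and 19.96 TPM in the siNC libraries and 50.9, 45.8 and 47.1 TPM in the siQ61K libraries (log2 fold change 1.42 with SE 0.15, adjusted p = 2.05e-05). IRF9, the DNA-binding partner of STAT2, had 48.7, 44.8 and 46.4 TPM in the siNC libraries and 57.9, 63.3 and 70.5 TPM in the siQ61K libraries (log2 fold change 0.44 with SE 0.13, adjusted p = 0.0294). Without siNC replicate 1, 2 or 3 or siQ61K replicate 2 or 3 its adjusted p lay between 0.0551 and 0.11. IRF1, a transcription factor of both interferon types, was at 10.1, 9.18 and 11.7 TPM in the siNC libraries and 22.4, 15.2 and 15.8 TPM in the siQ61K libraries (log2 fold change 0.71 with SE 0.17, adjusted p = 0.0101).

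Neither chain of the type I receptor passed the test. IFNAR1 had 15.1 ± 3.57 TPM with siNC and 16.2 ± 2.08 TPM with siQ61K (log2 fold change 0.12, adjusted p = 0.699). IFNAR2 had 14.4 ± 1.204 TPM with siNC and 16.7 ± 2.62 TPM with siQ61K (0.19, adjusted p = 0.423). The kinase TYK2 (0.12, adjusted p = 0.794) and the factor IRF3 (0.04, adjusted p = 0.899) did not pass it either. IRF7, which amplifies interferon transcription, was below the filter, at 1.03, 0 and 1.07 TPM in the siNC libraries and 0.331, 0 and 0.155 TPM in the siQ61K libraries, and its level is uncertain for the reason given for ISG15. Of 9 listed interferon genes, 8 were below the filter and 6 of these were listed at 0 in all 6 libraries. IFNB1 was listed at 0, 0 and 0.108 TPM in the siNC libraries and 0.226, 0 and 0 TPM in the siQ61K libraries. IFNE, a type I interferon of epithelia, was the 1 interferon gene tested, and it rose at a low level, at 0.758, 0.463 and 0.209 TPM in the siNC libraries and 1.76, 1.38 and 2.39 TPM in the siQ61K libraries (log2 fold change 0.95 with SE 0.23, adjusted p = 0.00979). IFNE passed the filter only through the siQ61K libraries, so it had to be higher there and its test is no evidence of a rise in interferon genes.

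Sensors of nucleic acids were mixed. Of 21 measured sensors and adaptors, 1 of which (IFIH1) passed the filter only through the siQ61K libraries, 8 rose and 3 fell. Of all genes tested, 9.42% rose and 14.1% fell. The number of sensors and adaptors that fell lies near the latter share. DDX58, which encodes RIG-I, rose from 19.3, 17.2 and 19.5 TPM to 54.6, 63.5 and 58.8 TPM (log2 fold change 1.61 with SE 0.13, adjusted p = 2.5e-06). The related helicases rose at lower levels. IFIH1, or MDA5, was at 0.319, 0 and 0.728 TPM in the siNC libraries and 3.45, 2.76 and 1.01 TPM in the siQ61K libraries (log2 fold change 1.29 with SE 0.32, adjusted p = 0.0102). DHX58, or LGP2, was at 2.73, 4.76 and 2.94 TPM in the siNC libraries and 21.6, 7.76 and 6.79 TPM in the siQ61K libraries (log2 fold change 1.40 with SE 0.33, adjusted p = 0.00894), with siQ61K replicate 1 far above the other two. SAMHD1, which depletes nucleotides, had 6.53, 6.88 and 8.93 TPM in the siNC libraries and 46.1, 37.9 and 43.3 TPM in the siQ61K libraries (log2 fold change 2.37 with SE 0.16, adjusted p = 5.53e-07). The cGAS adaptor STING1 went the other way and was lower in every siQ61K library, at 60.3, 52.6 and 67.6 TPM in the siNC libraries and 34.2, 21.05 and 22.5 TPM in the siQ61K libraries (log2 fold change -1.21 with SE 0.17, adjusted p = 0.000223). CGAS was at 1.22, 2.599 and 2.38 TPM in the siNC libraries and 1.37, 1.24 and 1.88 TPM in the siQ61K libraries and did not pass the test (log2 fold change -0.27, adjusted p = 0.44), nor did the RIG-I adaptor MAVS (-0.01, adjusted p = 0.97) or the kinase TBK1 (0.16, adjusted p = 0.549).

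Of 24 listed antigen presentation genes, mostly of the class I pathway, 21 passed the filter, and of these 11 rose and 0 fell (median log2 fold change 0.38). Below the filter and not tested, the class II genes CD74 and HLA-DRA were lower in every siQ61K library. CD74 had 0.956, 1.24 and 1.13 TPM with siNC and 0.153, 0 and 0.0614 TPM with siQ61K. HLA-DRA had 0.567, 0.311 and 0.999 TPM with siNC and 0.148, 0 and 0 TPM with siQ61K. B2M, the invariant chain of class I molecules, was the most abundant, at 1647, 1853 and 1899 TPM in the siNC libraries and 2939, 3189 and 3337 TPM in the siQ61K libraries (log2 fold change 0.81 with SE 0.09, adjusted p = 4.52e-05). HLA-B had 27.5, 22.2 and 19.1 TPM in the siNC libraries and 64.8, 61.5 and 53.7 TPM in the siQ61K libraries (log2 fold change 1.36 with SE 0.16, adjusted p = 4.98e-05). HLA-C had 17.5, 13.5 and 13.96 TPM in the siNC libraries and 29.3, 39.5 and 30.3 TPM in the siQ61K libraries (log2 fold change 1.09 with SE 0.20, adjusted p = 0.00171). Reads of these near-identical genes can be split between them, so their levels are uncertain. The peptide transporter TAP1 (0.87, SE 0.16), the proteasome subunit PSMB9 (1.14, SE 0.19) and the class I activator NLRC5 (0.97, SE 0.23) rose on the log2 scale.

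Of 19 listed T-cell chemokines and checkpoint ligands 13 passed the filter, 2 of them only through the siQ61K libraries, and of these 6 rose and 2 fell. Those that rose included chemokines at low levels. CXCL10 had 1.204, 0.154 and 0.697 TPM in the siNC libraries and 4.18, 5.22 and 4.29 TPM in the siQ61K libraries (log2 fold change 1.77 with SE 0.25, adjusted p = 0.000318). CXCL11, a ligand of the same receptor, had 0.256, 0.261 and 0.188 TPM in the siNC libraries and 1.69, 3.34 and 1.63 TPM in the siQ61K libraries (log2 fold change 1.34 with SE 0.25, adjusted p = 0.00202). CCL5 was at 1.29, 1.004 and 2.397 TPM in the siNC libraries and 5.32, 5.97 and 4.59 TPM in the siQ61K libraries (log2 fold change 1.33 with SE 0.24, adjusted p = 0.0016). TNFSF10, which encodes the death ligand TRAIL, had 0.422, 0.207 and 0.0373 TPM in the siNC libraries and 2.71, 2.15 and 2.25 TPM in the siQ61K libraries (log2 fold change 1.47 with SE 0.23, adjusted p = 0.000641). CXCL9 and CXCL16, of the same list, were below the filter and not tested, and the groups overlapped for CXCL16. CD274, or PD-L1, had 8.298, 6.89 and 6.15 TPM in the siNC libraries and 8.35, 17.6 and 13.9 TPM in the siQ61K libraries (log2 fold change 0.77 with SE 0.25, adjusted p = 0.0378). Its lowest siQ61K library was just above its highest siNC library, and without siNC replicate 2 or 3, siQ61K replicate 2 or 3 or siQ61K replicate 1 with DMSO its adjusted p lay between 0.0512 and 0.161.

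Feedback genes of ERK fell as a group. Of 25 listed ERK feedback inhibitors and ETV factors, 23 passed the filter, and of these 19 fell and 0 rose, with a median log2 fold change of -1.38, and between 16 and 20 fell with any 1 library left out. DUSP4 and DUSP5 are phosphatases that inactivate ERK in the nucleus. DUSP4 had 75.7, 70.7 and 73.02 TPM in the siNC libraries and 22.1, 16.8 and 17.8 TPM in the siQ61K libraries (log2 fold change -1.91 with SE 0.13, adjusted p = 4.9e-07). DUSP5 had 124, 132 and 146 TPM in the siNC libraries and 35.4, 32.6 and 36.96 TPM in the siQ61K libraries (log2 fold change -1.91 with SE 0.11, adjusted p = 1.19e-07). DUSP6, the ERK phosphatase of the cytoplasm, was below the filter, at 0.573, 0.578 and 1.01 TPM in the siNC libraries and 0.669, 0.712 and 0.189 TPM in the siQ61K libraries, a level as uncertain as that of ISG15.

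Sprouty proteins block the activation of RAS by receptors. SPRY2 was at 69.3, 68.2 and 72.7 TPM in the siNC libraries and 19.7, 20.3 and 23.1 TPM in the siQ61K libraries (log2 fold change -1.69 with SE 0.11, adjusted p = 3.44e-07). SPRY4 was at 14.1, 15.7 and 19.8 TPM in the siNC libraries and 5.89, 5.38 and 4.79 TPM in the siQ61K libraries (log2 fold change -1.45 with SE 0.18, adjusted p = 9.91e-05). The ETS factors fell as well. ETV4 was at 57.03, 49.8 and 54.03 TPM in the siNC libraries and 16.8, 15.4 and 13.1 TPM in the siQ61K libraries (log2 fold change -1.76 with SE 0.15, adjusted p = 3.9e-06). ETV5 was at 38.1, 43.6 and 42.98 TPM in the siNC libraries and 18.1, 19.99 and 21.6 TPM in the siQ61K libraries (log2 fold change -1.03 with SE 0.11, adjusted p = 3.81e-05). FOSL1, the FRA1 subunit of AP-1 that ERK stabilizes, was abundant under siNC, at 319, 309.7 and 342 TPM in the siNC libraries and 144, 110.1 and 119 TPM in the siQ61K libraries (log2 fold change -1.38 with SE 0.12, adjusted p = 4.44e-06). The siQ61K libraries lay below the siNC libraries without overlap for these genes, as for 22.1% of all genes tested. The members that did not pass the test were SPRED2 (log2 fold change -0.64, adjusted p = 0.0622), KANK1 (-0.23, adjusted p = 0.417), ELF1 (0.06, adjusted p = 0.827) and EPHA4 (-0.21, adjusted p = 0.682), the last of which was outside the naming rule and chosen after its values were seen.

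Immediate early genes, which ERK and other signals switch on within minutes, were mixed: 8 of 20 measured genes fell and 4 rose. Of all genes tested, 14.1% fell and 9.42% rose. The list median was a log2 fold change of -0.22. The genes named in this paragraph fell or did not pass the test, and none of the 4 that rose is among them. DUSP1 fell most, from 79.1, 66.6 and 67.99 TPM to 14.5, 14.2 and 13.04 TPM (log2 fold change -2.27 with SE 0.12, adjusted p = 4.74e-08). EGR1, a zinc finger factor and a standard readout of ERK, had 16.02, 13.6 and 16.5 TPM in the siNC libraries and 4.72, 3.55 and 3.19 TPM in the siQ61K libraries (log2 fold change -1.77 with SE 0.19, adjusted p = 2.45e-05). ZFP36, which destabilizes inflammatory mRNAs, had 20.3, 16.5 and 20.9 TPM in the siNC libraries and 7.01, 4.304 and 4.701 TPM in the siQ61K libraries (log2 fold change -1.69 with SE 0.20, adjusted p = 6.15e-05). NR4A1 (log2 fold change -1.11, SE 0.19) and IER2 (-0.95, SE 0.12) fell by less, and NR4A2, an orphan receptor of the same family as NR4A1, fell from 9.56, 9.76 and 9.79 TPM to 1.37, 1.599 and 1.402 TPM (log2 fold change -2.12 with SE 0.20, adjusted p = 8.01e-06). CCN1 (log2 fold change 0.17, adjusted p = 0.433) and KLF6 (0.06, adjusted p = 0.793) did not pass the test. The number that rose was 2 without siNC replicate 1 and 2 without siQ61K replicate 2.

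Among 10 measured ligands and receptors of the EGF family, of 13 listed, 3 fell and 1 rose, against 14.1% and 9.42% of all genes tested. Of the 10, 1 passed the filter only through the siNC libraries. The ligand TGFA went from 60.9, 64.6 and 66.3 TPM to 21.04, 19.7 and 23.4 TPM (log2 fold change -1.54 with SE 0.14, adjusted p = 7.09e-06). HBEGF, a second ligand, fell from 63.2, 60.9 and 61.7 TPM to 28.98, 27.6 and 30.9 TPM (log2 fold change -1.06 with SE 0.10, adjusted p = 1.15e-05). ERRFI1, which inhibits the EGF receptor, was also lower, at 276, 288 and 322 TPM in the siNC libraries and 162, 142 and 167 TPM in the siQ61K libraries (log2 fold change -0.91 with SE 0.12, adjusted p = 0.000148). The receptors EGFR (log2 fold change -0.34, adjusted p = 0.293) and ERBB2 (-0.23, adjusted p = 0.445) did not pass the test. In a list of 16 measured receptor tyrosine kinases and adaptors, of 22 listed, 0 rose and 0 fell in limma, and 1 had an unadjusted p under 0.05. EPHB2 passed after the correction, with a log2 fold change of 0.50. MET (0.12, adjusted p = 0.662), AXL (-0.01, adjusted p = 0.94) and EPHB2 (0.23, adjusted p = 0.514) were the most abundant of them.

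**Figure D3:**
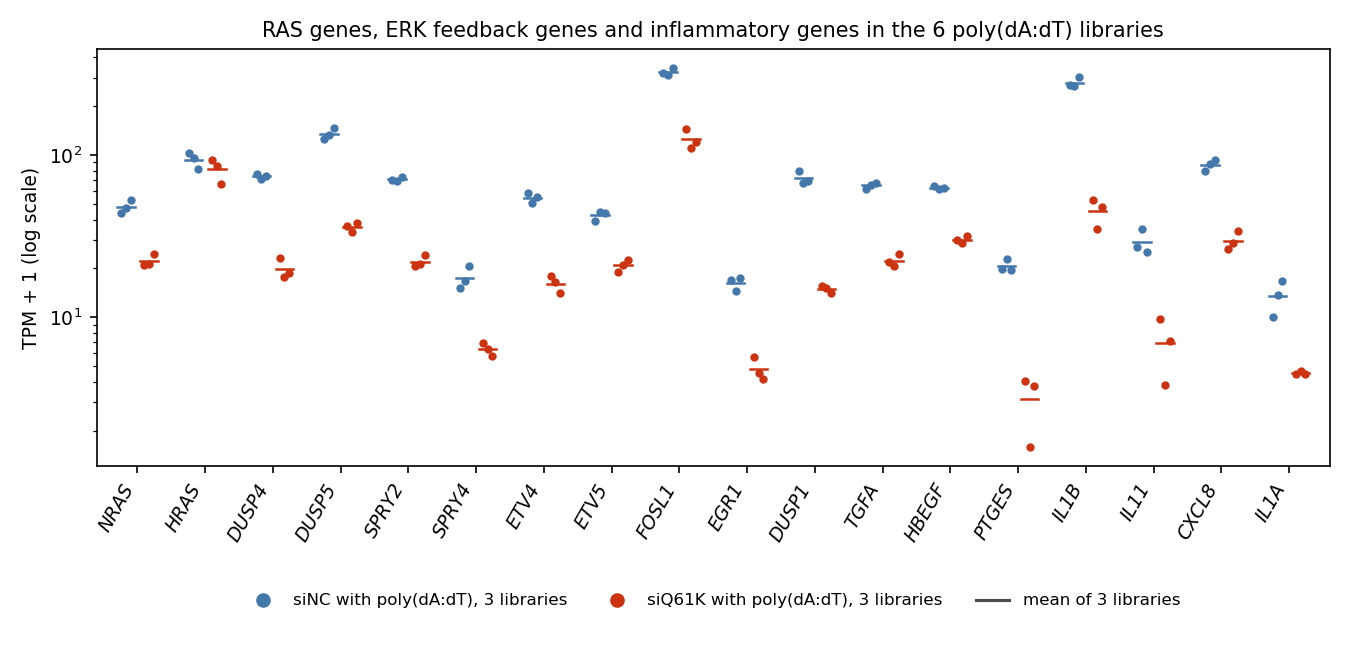
TPM + 1 on a log axis of RAS genes, ERK feedback genes, EGF ligands and inflammatory genes in the 3 siNC (blue) and 3 siQ61K (red) libraries with poly(dA:dT), with the mean of each group as a line. NRAS and all genes from DUSP4 to the right lie lower in every siQ61K library, and the groups overlap for HRAS.

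Inflammatory genes did not follow the antiviral genes. Of 26 listed genes of the IL1 and IL6 families and neutrophil chemokines, 15 passed the filter, and of these 6 fell and 3 rose. IL1B, the main secreted form of interleukin 1, fell from 268, 265 and 304 TPM to 51.5, 34.1 and 46.7 TPM (log2 fold change -2.65 with SE 0.14, adjusted p = 4.74e-08). IL1A had 9.09, 12.7 and 15.6 TPM in the siNC libraries and 3.44, 3.63 and 3.47 TPM in the siQ61K libraries (log2 fold change -1.55 with SE 0.20, adjusted p = 0.000135). IL11, a cytokine of the IL6 family, had 26.1, 34.1 and 24.1 TPM in the siNC libraries and 8.77, 2.83 and 6.11 TPM in the siQ61K libraries (log2 fold change -2.16 with SE 0.26, adjusted p = 7.3e-05), with siQ61K replicate 2 lowest. CXCL8, the neutrophil attractant, had 78.3, 87.1 and 91.6 TPM in the siNC libraries and 25.3, 27.8 and 32.8 TPM in the siQ61K libraries (log2 fold change -1.55 with SE 0.17, adjusted p = 2.76e-05). IL6 was low and did not pass the test, at 2.65, 5.2997 and 2.71 TPM in the siNC libraries and 2.23, 1.56 and 2.12 TPM in the siQ61K libraries (log2 fold change -0.57, adjusted p = 0.127).

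PTGES, the enzyme that makes prostaglandin E2, fell from 18.8, 21.8 and 18.5 TPM to 3.02, 0.586 and 2.79 TPM (log2 fold change -2.84 with SE 0.29, adjusted p = 1.66e-05). In the other direction, IL32, an intracellular cytokine of epithelial and stromal cells, rose from 5.69, 5.17 and 5.499 TPM to 75.4, 70.2 and 54.4 TPM (log2 fold change 3.38 with SE 0.14, adjusted p = 1.57e-08). CCL2, which attracts monocytes, rose from 1.99, 5.38 and 2.44 TPM to 13.6, 15.1 and 11.8 TPM (log2 fold change 1.84 with SE 0.25, adjusted p = 0.000201). SOD2, a mitochondrial antioxidant enzyme and a target of NF-kB, had 47.95, 51.4 and 49.2 TPM in the siNC libraries and 146, 126 and 141 TPM in the siQ61K libraries (log2 fold change 1.45 with SE 0.14, adjusted p = 9.66e-06). SOD2 does not stand for NF-kB targets at large. Of 25 listed NF-kB subunits and feedback targets 22 passed the filter, 1 of them only through the siQ61K libraries. Of these 22, 3 rose and 4 fell, near the 9.42% and 14.1% of all genes tested (median log2 fold change -0.16). With 1 library left out 3 to 4 rose and 1 to 7 fell. The NF-kB subunit RELA overlapped between the groups (log2 fold change -0.23, adjusted p = 0.352).

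Of 24 listed acute-phase and complement genes 15 passed the filter, 3 of them only through the siQ61K libraries, and of these 10 rose and 1 fell. SAA1, an acute-phase protein of serum, had 1.34, 0.226 and 0.824 TPM in the siNC libraries and 12.9, 6.66 and 13.1 TPM in the siQ61K libraries (log2 fold change 2.72 with SE 0.31, adjusted p = 4.8e-05). SAA2 had 0, 1.3004 and 1.14 TPM in the siNC libraries and 12.004, 6.11 and 6.27 TPM in the siQ61K libraries (log2 fold change 2.37 with SE 0.32, adjusted p = 0.00018). C4B had 1.61, 0.806 and 0.814 TPM in the siNC libraries and 11.9, 10.1 and 10.5 TPM in the siQ61K libraries (log2 fold change 2.53 with SE 0.19, adjusted p = 1.94e-06). C4A had 1.42, 1.34 and 1.89 TPM in the siNC libraries and 11.2, 11.6 and 9.66 TPM in the siQ61K libraries (log2 fold change 2.22 with SE 0.21, adjusted p = 9.39e-06). SAA1 and SAA2, like C4A and C4B, are near-identical copies, so the split between them is uncertain. C1S, a protease at the start of the classical pathway, had 4.88, 4.54 and 6.29 TPM in the siNC libraries and 14.8, 14.9 and 14.03 TPM in the siQ61K libraries (log2 fold change 1.33 with SE 0.16, adjusted p = 7.3e-05). The long pentraxin PTX3 did not pass the test, at 26.9 ± 1.21 TPM with siNC and 25.7 ± 2.11 TPM with siQ61K (log2 fold change -0.06, adjusted p = 0.737).

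Genes of cell division fell. Of 42 measured mitosis and G2/M genes, 38 fell and 0 rose (median log2 fold change -0.93), and between 34 and 38 fell with any 1 library left out. KIF20A, a kinesin of cytokinesis, had 38.2, 35.5 and 42.1 TPM in the siNC libraries and 14.3, 8.19 and 12.8 TPM in the siQ61K libraries (log2 fold change -1.66 with SE 0.19, adjusted p = 4.76e-05). PLK1, the kinase that starts mitosis, had 167, 157 and 170.4 TPM in the siNC libraries and 61.6, 41.8 and 57.3 TPM in the siQ61K libraries (log2 fold change -1.62 with SE 0.14, adjusted p = 3.9e-06). KIF2C, which takes apart microtubules at kinetochores, had 46.9 ± 2.59 TPM with siNC and 15.2 ± 2.703 TPM with siQ61K (log2 fold change -1.58, SE 0.16). CENPA, the histone that marks centromeres, had 36.8, 40.02 and 43.5 TPM in the siNC libraries and 15.1, 10.8 and 16.04 TPM in the siQ61K libraries (log2 fold change -1.47 with SE 0.14, adjusted p = 1.25e-05). CCNB2, a mitotic cyclin, had 90.6 ± 1.27 TPM with siNC and 33.99 ± 2.52 TPM with siQ61K (log2 fold change -1.39, SE 0.10), and the phosphatase CDC25B 64.4 ± 1.18 TPM with siNC and 22.7 ± 2.37 TPM with siQ61K (-1.47, SE 0.13). The checkpoint protein BUB3 did not pass the test (log2 fold change -0.22, adjusted p = 0.138).

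Many mitotic promoters carry the cell cycle genes homology region (CHR), TTTGAA, near the start, and the 2 members with a single annotated window, a match and the lowest fold change are shown with the CHR in capitals. They are PLK1 (chr16:23678639-23678888, plus strand) and CENPA (chr2:26785806-26786055, plus strand), again 250 bases before the start from RefSeq, GRCh38.p14.
PLK1: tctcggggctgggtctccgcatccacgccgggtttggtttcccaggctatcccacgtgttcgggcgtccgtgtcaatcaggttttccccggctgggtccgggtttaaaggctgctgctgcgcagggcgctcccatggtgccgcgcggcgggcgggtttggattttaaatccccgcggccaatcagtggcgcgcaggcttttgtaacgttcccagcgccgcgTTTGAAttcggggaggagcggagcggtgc
CENPA: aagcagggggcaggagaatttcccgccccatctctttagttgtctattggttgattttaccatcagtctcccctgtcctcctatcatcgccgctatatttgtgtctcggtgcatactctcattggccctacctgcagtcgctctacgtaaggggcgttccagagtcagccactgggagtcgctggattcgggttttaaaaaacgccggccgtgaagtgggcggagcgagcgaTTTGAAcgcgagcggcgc
The match began 29 bases before the start in PLK1 and 18 bases before it in CENPA. On either strand, 18 of 35 matched mitosis genes held the motif (51.4%), against 1 of 35 DNA replication genes (2.86%), 4 of 14 ERK feedback genes (28.6%), 209 of 1476 genes that fell (14.2%) and 1186 of 9907 genes tested (12%). No matched member of the mitosis list held the ISRE core.

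DNA replication genes fell less broadly, with 18 of 40 measured genes lower and 1 higher (median log2 fold change -0.39). CDT1, which licenses origins, had 42.4, 29.8 and 37.95 TPM in the siNC libraries and 18.6, 20.3 and 12.6 TPM in the siQ61K libraries (log2 fold change -1.07 with SE 0.19, adjusted p = 0.00129). TK1, thymidine kinase, had 124 ± 7.19 TPM with siNC and 59.3 ± 3.17 TPM with siQ61K (log2 fold change -1.05, SE 0.11), and MCM5, a subunit of the replicative helicase, had 68.2 ± 3.45 TPM with siNC and 32.4 ± 3.004 TPM with siQ61K (-1.05, SE 0.13). PCNA, the sliding clamp, was at 309, 285 and 279.8 TPM in the siNC libraries and 258, 309 and 306 TPM in the siQ61K libraries and did not pass the test (log2 fold change -0.01, adjusted p = 0.971).

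Regulators of G1 were mixed, with 7 of 22 measured genes lower and 1 higher, against 14.1% and 9.42% of all genes tested. The number that fell was 3 without siNC replicate 1, siNC replicate 2 or siQ61K replicate 2 and 4 without siQ61K replicate 3. CCNE1, the cyclin of the G1 to S transition, rose from 3.51, 2.77 and 3.84 TPM to 11.4, 11.03 and 11.2 TPM (log2 fold change 1.49 with SE 0.18, adjusted p = 7.35e-05). CDKN2D, an inhibitor of CDK4 and CDK6, fell from 24.5, 20.8 and 20.2 TPM to 7.84, 6.31 and 5.95 TPM (log2 fold change -1.57 with SE 0.18, adjusted p = 4.33e-05). E2F8, a repressor of cell cycle genes, fell from 4.501, 7.17 and 5.51 TPM to 1.74, 2.405 and 1.67 TPM (log2 fold change -1.19 with SE 0.21, adjusted p = 0.00167). CCND1, cyclin D1, had 128, 129.6 and 147 TPM in the siNC libraries and 100.4, 85.5 and 92.9 TPM in the siQ61K libraries (log2 fold change -0.53 with SE 0.16, adjusted p = 0.0303), and its adjusted p lay between 0.0557 and 0.102 without siNC replicate 1, 2 or 3 or siQ61K replicate 2 or 3. CDK4 (log2 fold change -0.24, adjusted p = 0.196) and CDKN1B (0.29, adjusted p = 0.118) did not pass the test.

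Metabolic genes fell in several lists. Of 31 measured glycolysis and hypoxia genes, 20 fell and 0 rose (median log2 fold change -0.49). CA9, a carbonic anhydrase and a standard hypoxia marker, had 39.7, 32.98 and 27.7 TPM in the siNC libraries and 10.3, 4.501 and 11.04 TPM in the siQ61K libraries (log2 fold change -1.91 with SE 0.27, adjusted p = 0.000269). GAPDH, often taken as a constant reference, had 9879, 9204 and 8773 TPM in the siNC libraries and 5982, 4478 and 4382 TPM in the siQ61K libraries (log2 fold change -0.92 with SE 0.12, adjusted p = 0.000141). VEGFA, the vascular growth factor, had 108 ± 8.46 TPM with siNC and 53.3 ± 8.802 TPM with siQ61K (log2 fold change -1.01, SE 0.15), ENO2 60.5 ± 5.997 TPM with siNC and 28.6 ± 5.63 TPM with siQ61K (-1.07, SE 0.15) and the glucose transporter SLC2A3 61.1 ± 4.14 TPM with siNC and 30.5 ± 3.44 TPM with siQ61K (-0.98, SE 0.13). HIF1A, the hypoxia factor itself, did not pass the test (log2 fold change -0.06, adjusted p = 0.822), and LDHA missed it as deposited (-0.25, adjusted p = 0.0594) but passed after the correction (adjusted p = 0.00792).

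Sterol and fatty acid synthesis genes fell in 16 of 31 measured cases and rose in 0. INSIG1, which holds back the sterol-sensing factor SREBP, had 176, 184 and 183 TPM in the siNC libraries and 81.4, 70.3 and 85.6 TPM in the siQ61K libraries (log2 fold change -1.19 with SE 0.11, adjusted p = 5.54e-06). FDPS had 455 ± 23.8 TPM with siNC and 249 ± 30.8 TPM with siQ61K (log2 fold change -0.87, SE 0.10) and FASN, fatty acid synthase, 443 ± 75.7 TPM with siNC and 245 ± 88.2 TPM with siQ61K (-0.89, SE 0.19). HMGCS1 overlapped between the groups (log2 fold change 0.02, adjusted p = 0.942). In the ER stress and ATF4 list 13 of 28 measured genes fell and 5 rose. Of the 28, 1 passed the filter only through the siQ61K libraries. The number that fell was 7 without siNC replicate 1, and 8 without siNC replicate 3 or siQ61K replicate 2. The number that rose was 3 without siNC replicate 2 or siQ61K replicate 2. PHGDH, the first enzyme of serine synthesis, fell, at 159, 142 and 151 TPM in the siNC libraries and 55.4, 65.9 and 46.6 TPM in the siQ61K libraries (log2 fold change -1.43 with SE 0.18, adjusted p = 0.000101). ASNS, asparagine synthetase, had 80.2, 83.4 and 89.8 TPM in the siNC libraries and 29.2, 31.4 and 41.2 TPM in the siQ61K libraries (log2 fold change -1.31 with SE 0.13, adjusted p = 1.15e-05). NUPR1, a stress-induced nuclear protein, rose from 0.281, 0.507 and 0.678 TPM to 4.68, 4.21 and 4.81 TPM (log2 fold change 1.91 with SE 0.22, adjusted p = 4.69e-05).

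Lysosome and autophagy genes went the other way, with 17 of 33 measured genes higher and 2 lower (median log2 fold change 0.40). OPTN, an autophagy receptor, had 24.9, 22.005 and 28.6 TPM in the siNC libraries and 62.7, 62.6 and 64.4 TPM in the siQ61K libraries (log2 fold change 1.30 with SE 0.12, adjusted p = 8.86e-06). SQSTM1, or p62, had 279.5, 256 and 229 TPM in the siNC libraries and 496, 389 and 433 TPM in the siQ61K libraries (log2 fold change 0.78 with SE 0.11, adjusted p = 0.000229). NPC1, which exports cholesterol from lysosomes, fell from 215, 247 and 262 TPM to 94.7, 59.1 and 97.9 TPM (log2 fold change -1.54 with SE 0.17, adjusted p = 2.78e-05). The proteases CTSB (log2 fold change 0.01, adjusted p = 0.959) and CTSD (0.36, adjusted p = 0.0981) did not pass the test, though CTSD did after the correction (adjusted p = 0.000305).

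Matrix glycoproteins moved in both directions: of 23 measured, 5 rose and 5 fell, and 3 fell without siQ61K replicate 2 or 3. Of the 23, 1 passed the filter only through the siQ61K libraries. Of all genes tested, 9.42% rose and 14.1% fell. THBS1, thrombospondin 1, which activates TGF-beta and inhibits vessel growth, rose from 14.6, 12.7 and 13.6 TPM to 119, 120.1 and 118 TPM (log2 fold change 3.04 with SE 0.14, adjusted p = 2.47e-08). CCN5, a matricellular protein, was listed at 0 in all 3 siNC libraries and at 4.55, 5.72 and 3.85 TPM under siQ61K (adjusted p = 3.52e-06). LAMA4, a laminin chain of vessel walls, fell from 41.3, 47.7 and 38.98 TPM to 11.3, 14.5 and 11.1 TPM (log2 fold change -1.72 with SE 0.15, adjusted p = 5.48e-06). Fibronectin, FN1, did not pass the test (log2 fold change -0.30, adjusted p = 0.0922).

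TGFB2, a TGF-beta ligand, rose from 5.48, 6.99 and 6.87 TPM to 33.96, 33.3 and 39.8 TPM (log2 fold change 2.30 with SE 0.18, adjusted p = 1.95e-06). ID1, a target of the related BMP pathway, fell from 584, 506 and 430.4 TPM to 122, 123 and 116 TPM (log2 fold change -2.05 with SE 0.12, adjusted p = 8.76e-08). LTBP1, which stores latent TGF-beta in the matrix, fell from 42.4, 41.8 and 53.95 TPM to 20.99, 17.97 and 22.6 TPM (log2 fold change -1.12 with SE 0.17, adjusted p = 0.000419). In all, 4 of 27 measured genes of these pathways rose and 8 fell, against 9.42% and 14.1% of all genes tested.

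Of 13 measured integrins, 6 fell and 1 rose, against 14.1% and 9.42% of all genes tested. The number that rose lies near that share. ITGB1, the common beta chain, had 670.3, 704 and 823 TPM in the siNC libraries and 312, 278 and 344 TPM in the siQ61K libraries (log2 fold change -1.23 with SE 0.13, adjusted p = 2.6e-05). ITGB3 had 10.2 ± 3.44 TPM with siNC and 2.26 ± 0.9103 TPM with siQ61K (log2 fold change -1.77, SE 0.29) and ITGA6, a laminin receptor, 194 ± 28.004 TPM with siNC and 84.7 ± 11.01 TPM with siQ61K (-1.19, SE 0.17). ITGAV was the member that rose, at 40.9 ± 4.75 TPM with siNC and 76.1 ± 7.44 TPM with siQ61K (0.88, SE 0.19). CD44, the hyaluronan receptor, fell from 564, 607 and 724 TPM to 222, 188 and 207 TPM (log2 fold change -1.61 with SE 0.19, adjusted p = 6.41e-05).

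Proteases of the matrix fell in 9 of 17 measured cases and rose in 5. MMP9 had 43.5, 32.4 and 35.3 TPM in the siNC libraries and 15.6, 9.62 and 10.1 TPM in the siQ61K libraries (log2 fold change -1.60 with SE 0.17, adjusted p = 2.94e-05). MMP14, a membrane-bound collagenase, had 710.3, 686 and 778 TPM in the siNC libraries and 435, 261 and 320.0 TPM in the siQ61K libraries (log2 fold change -1.13 with SE 0.19, adjusted p = 0.000873). PLAUR, the urokinase receptor and an ERK target that is also counted among the ERK genes, had 381, 321 and 323 TPM in the siNC libraries and 138, 99.6 and 121 TPM in the siQ61K libraries (log2 fold change -1.51 with SE 0.12, adjusted p = 1.98e-06). The number that rose was 2 without siNC replicate 1 and 3 without siNC replicate 2 or siQ61K replicate 3. Actin and contractile genes went both ways: of 23 measured, 6 rose and 7 fell (median log2 fold change -0.04). With 1 library left out 3 to 6 rose and 2 to 8 fell, and after the correction 9 rose and 6 fell. The 2 genes named next rose and do not stand for the list. Tropomyosin TPM1, which stabilizes actin filaments, rose from 151, 148 and 143 TPM to 524, 545 and 545 TPM (log2 fold change 1.86 with SE 0.08, adjusted p = 1.58e-08). Caldesmon, CALD1, rose from 21.9, 23.9 and 28.6 TPM to 67.3, 58.5 and 71.9 TPM (log2 fold change 1.38 with SE 0.14, adjusted p = 1.54e-05).

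**Figure D4:**
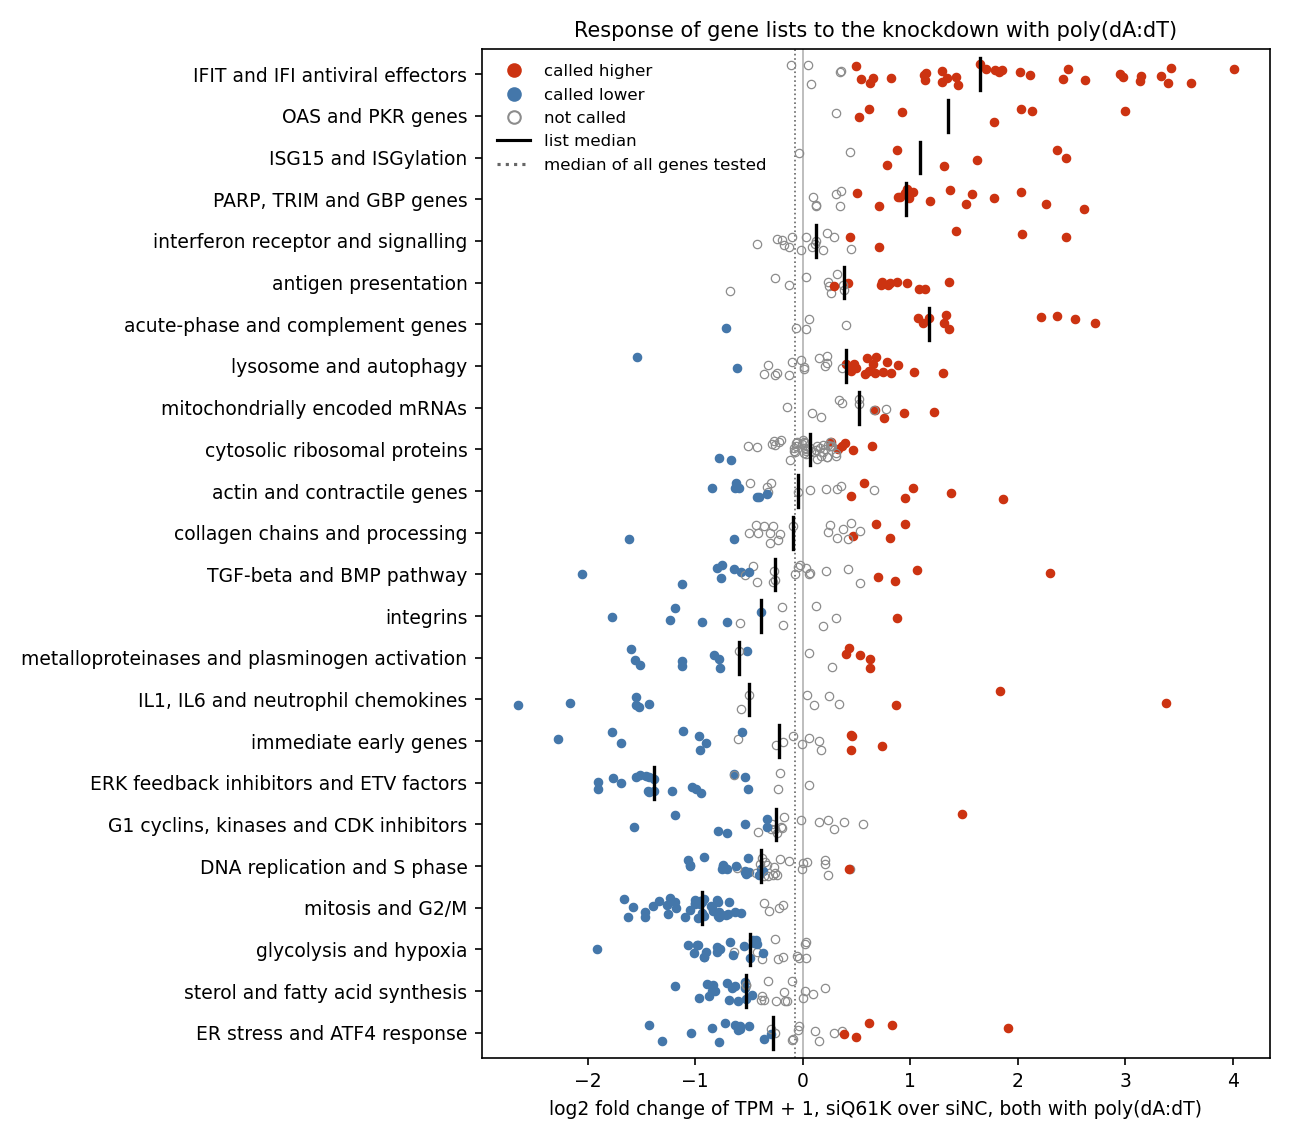
Log2 fold changes of TPM + 1, siQ61K over siNC with poly(dA:dT), for each tested member of 24 gene lists. Filled points passed the test (red higher, blue lower), open points did not, and black bars are list medians. The IFIT and IFI list lies to the right (median 1.65) and the ERK feedback list to the left (median -1.38) of the median of all genes tested (-0.07).

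Several of the genes with the highest folds stood in no list. AGT, angiotensinogen, had 0.393, 0.379 and 0.311 TPM in the siNC libraries and 11.9, 8.94 and 11.5 TPM in the siQ61K libraries (log2 fold change 3.11 with SE 0.18, adjusted p = 1.43e-07). SCG5, a chaperone of neuroendocrine cells, had 17.9, 15.5 and 16.3 TPM in the siNC libraries and 122, 157 and 154 TPM in the siQ61K libraries (log2 fold change 3.04 with SE 0.13, adjusted p = 1.58e-08). ACTBL2, an actin-like gene close to ACTB in sequence, had 1.502, 0.414 and 0.447 TPM in the siNC libraries and 12.4, 13.8 and 13.2 TPM in the siQ61K libraries (log2 fold change 3.03 with SE 0.22, adjusted p = 1.2e-06). The non-coding LINC02154 had 0.666, 0.747 and 0.558 TPM in the siNC libraries and 15.8, 10.4 and 15.5 TPM in the siQ61K libraries (log2 fold change 3.15 with SE 0.22, adjusted p = 7.2e-07). WFDC21P was listed at 0 in all 3 siNC libraries and at 9.79, 6.57 and 7.34 TPM under siQ61K (adjusted p = 1.66e-06). The highest fold of all belonged to RPL23AP42, a ribosomal protein pseudogene whose reads can be shared with near-identical copies, at 0, 14.03 and 2.4998 TPM in the siNC libraries and 63.6, 154 and 261 TPM in the siQ61K libraries (log2 fold change 5.20 with SE 0.87, adjusted p = 0.000981), with a wide spread in both groups.

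At the low end, STC1, a secreted calcium regulator, fell from 343, 367 and 458 TPM to 95.98, 82.8 and 101 TPM (log2 fold change -2.04 with SE 0.16, adjusted p = 1.98e-06). VGF, a neuropeptide precursor, had 35.9, 27.8 and 29.4 TPM in the siNC libraries and 6.97, 6.099 and 5.35 TPM in the siQ61K libraries (log2 fold change -2.16 with SE 0.14, adjusted p = 4.38e-07). GRAMD1B, a carrier of cholesterol to the endoplasmic reticulum, had 147, 133 and 133 TPM in the siNC libraries and 31.2, 30.2 and 21.9 TPM in the siQ61K libraries (log2 fold change -2.29 with SE 0.14, adjusted p = 3.08e-07). NDE1, a partner of dynein in mitosis, had 32.95, 48.6 and 57.9 TPM in the siNC libraries and 12.1, 6.78 and 12.9 TPM in the siQ61K libraries (log2 fold change -2.04 with SE 0.25, adjusted p = 7.53e-05). The groups did not overlap for these 4 genes, which were chosen for their low folds.

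Markers of the labelled cell type, a fibrosarcoma line, were present in part. Of 16 listed mesenchymal genes 12 passed the filter, and of these 3 rose and 4 fell, with 2 lower without siNC replicate 1, siQ61K replicate 2 or siQ61K replicate 3. Of all genes tested, 9.42% rose and 14.1% fell. VIM, the filament protein vimentin, was at 6560.4, 5913 and 6340.4 TPM in the siNC libraries and 5251, 4728 and 5480.2 TPM in the siQ61K libraries (log2 fold change -0.28, adjusted p = 0.105). PRRX1, THY1 and NT5E stayed at or under 0.336 TPM in all 6 libraries, and FAP reached 1.23 TPM in 1 siQ61K library and was at most 0.169 TPM in the others. Markers of other cell types summed to 972 to 1088 TPM under siNC and 788 to 1039 TPM under siQ61K, mostly from KRT8, KRT18, TUBB3 and CD68. Of the 8 tested, 0 passed limma's test, against 23.5% of all genes, with 1 at an unadjusted p under 0.05. PTPRC, MS4A1, CDH1 and MYOD1, markers of blood, epithelial and muscle cells, were listed at 0 in all 6 libraries. Other epithelial and blood markers of the list were high. The keratins KRT8 and KRT18 had means of 444 and 195 TPM with siNC and 380 and 170 TPM with siQ61K. The myeloid marker CD68 had 150 TPM with siNC and 112 TPM with siQ61K. Of the 13 mRNAs of the mitochondrial genome, 4 rose and 0 fell, against 9.42% and 14.1% of all genes tested. The number that rose was 9 without siQ61K replicate 1 and 1 without siNC replicate 1, siQ61K replicate 2 or siQ61K replicate 3. With the mitochondrial genes left out 3151 genes were called with poly(dA:dT), and 194 of the 194 named genes tested beside NRAS stayed on their side of the threshold. The part of the other markers in the results was not tested.

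The same knockdown was measured with DMSO in 6 other libraries, which share none with the comparison above. There 4604 genes were called (33.9%), 2405 higher and 2199 lower. Of the genes higher with poly(dA:dT), 581 were also higher with DMSO, which is 45.4% of the former and 24.2% of the latter. Of the lower genes 678 were shared, 35.4% and 30.8% of each set. Over all genes tested, 17.7% were higher and 16.2% lower with DMSO. Another 65 genes were higher with poly(dA:dT) and lower with DMSO, and 135 the reverse. These counts are from before the correction. There the fold change followed GC content in opposite directions, with Spearman's rho 0.522 with DMSO and -0.258 with poly(dA:dT). How far that shaped the overlap was not tested. The difference of the 2 knockdown responses, tested as an interaction, was called for 2755 genes (20.3%), 6.8% higher and 13.5% lower. With 1 library left out it was called for 1131 to 3961 genes, fewest without siNC replicate 1 with DMSO. Its fold change followed GC content (Spearman's rho -0.679 across genes), and after the correction 320 genes (2.36%) were called, 1.54% higher and 0.82% lower. Of these, 261 (1.92% of genes) were called the same way in both fits, 163 higher (1.2%) and 98 lower (0.722%).

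Antiviral genes were among those that remained. Of the 37 IFIT and IFI effectors, 25 had a higher knockdown response with poly(dA:dT) than with DMSO before correction and 24 after it, and 0 had a lower one. The corresponding counts after correction were 7 of 8 OAS and PKR genes, 4 of 8 ISGylation genes and 13 of 22 PARP, TRIM and GBP genes, against 1.54% of all genes. The fold changes given next are from before the correction. DDX58 had 13.3 ± 1.68 TPM with siNC and 8.16 ± 0.279 TPM with siQ61K with DMSO, so it fell there (log2 fold change -0.63, adjusted p = 0.0025) and rose with poly(dA:dT), with a difference of 2.24 (adjusted p = 5.2e-05). IFI6 rose in both settings, by 1.98 with DMSO and by 3.39 with poly(dA:dT), and its difference was 1.41 (adjusted p = 0.00535).

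By limma's interaction test 7 of 23 ERK feedback genes, 9 of 42 mitosis genes and 12 of 33 lysosome genes differed between the settings before correction, against 20.3% of all genes. After correction 0 of each list did, against 2.36% of all genes, and 3, 8 and 10 had an unadjusted p under 0.05. In lists of this size 0 calls lie near that share and say nothing particular of these genes. DUSP4 fell by 1.51 on the log2 scale with DMSO and fell by 1.91 with poly(dA:dT), and the difference did not pass the test (-0.40, adjusted p = 0.131). SPRY2 fell by 1.72 and fell by 1.69 (difference 0.03, adjusted p = 0.9). IL32 rose by 3.62 and 3.38 (difference -0.24, adjusted p = 0.404), and THBS1 by 2.97 and 3.04 (difference 0.06, adjusted p = 0.854). A p that misses the threshold does not show that the responses were equal.

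**Figure D5:**
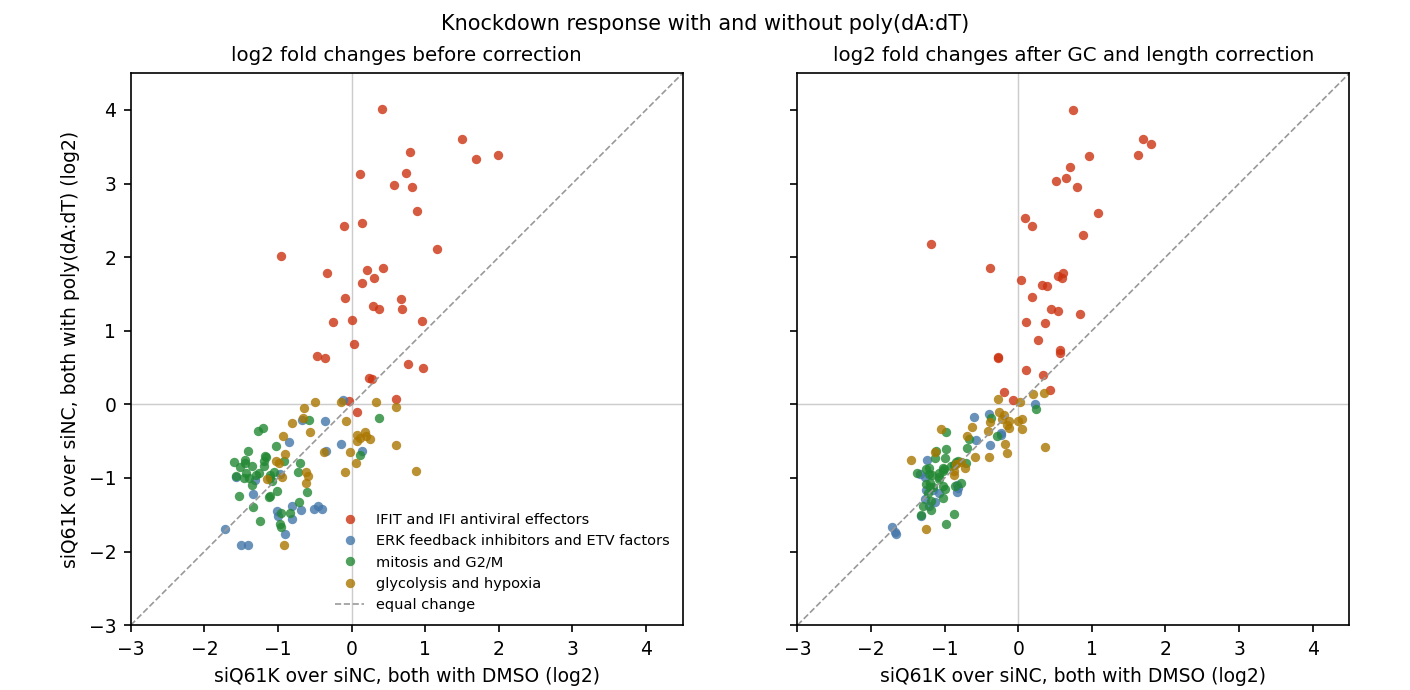
Log2 fold change of the knockdown with DMSO (horizontal) and with poly(dA:dT) (vertical) for the members of 4 lists, before (left) and after (right) the GC and length correction. The 2 axes share no libraries, and the dashed line marks equal change. Most antiviral effectors lie above the line in both panels, while mitosis and ERK feedback genes lie close to it after correction.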

How the data were processed

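RNA-seq was measured in 12 HT1080 libraries, 3 a group. Per the labels' protocols, total RNA went through a NEBNext Ultra kit to an Illumina NovaSeq. The authors deposited TPM per gene symbol. The submitters' processing notes name Salmon 0.8.0 and hg19. Which annotation was used, how transcripts were summed to genes and whether strand was used is not given in the sources used here. Read depth is unknown, because TPM does not keep it. Columns were matched to titles by reading NC as siNC, SI as siQ61K and PD as poly(dA:dT), an inference from names.

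Of 56227 rows, 984 that share 58 symbols were left out. The values of all 4 groups, as log2(TPM + 1), were fitted together with limma 3.58.1 in R 4.3.3, which modelled the variance as a trend of the level. P-values were adjusted by Benjamini and Hochberg's method over 13578 genes, and the threshold was 0.05. GC content and length came from the longest GENCODE transcript of each of 13533 genes, and the correction was a lowess per library (span 0.3). Motifs were searched in RefSeq windows (GRCh38.p14). Alternatives changed the pseudocount, filter, scaling, variance model, replicate block or libraries.

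The members, the 41 gene lists and the settings were chosen with earlier results of these data known. Genes named are NRAS, the 15 highest and 15 lowest called genes kept after correction, up to 6 called members of each list by fold change and its 3 most abundant uncalled ones, a chosen set of interferon and RAS genes, and the 8 highest and 8 lowest interaction genes. Some of these are not reported here.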

Additional observations from a re-analysis of the deposited data

Results flagged for a closer look

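The response to the knockdown differed between poly(dA:dT) and DMSO for 2755 genes by the interaction test in limma, and for 320 after the correction for GC content and length. The genes below passed that test before and after the correction, so their change under siQ61K differed between the settings. Values are differences of log2 fold changes, poly(dA:dT) minus DMSO, from before the correction, which can change their size. The list median of the difference was 1.40 before and 1.21 after it for IFIT and IFI effectors. It was 1.36 and 1.25 for OAS and PKR genes, and 0.89 and 0.87 for PARP, TRIM and GBP genes. For ISGylation genes it was 0.32 and 0.84, and for antigen presentation genes 0.27 and 0.37.

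Among antiviral effectors the difference was IFI44L 3.59, IFI44 3.01, IFIT3 2.62, RSAD2 2.41 and MX2 2.40. It was MX1 2.14, IFIT1 2.11, IFIT2 1.74, IFI27 1.64 and IFI6 1.41 for further members. Among OAS genes and PKR it was OAS2 2.44, OAS3 2.05, OASL 1.57, EIF2AK2 1.39 and OAS1 1.33. For ISGylation genes and signalling it was USP18 2.10, HERC5 2.06, HERC6 1.48 and STAT2 0.78, and for sensors DDX58 2.24 and SAMHD1 1.88. Among PARP, TRIM and GBP genes it was LGALS9 1.96, PARP14 1.76, GBP1 1.61, PARP9 1.35, TRIM22 1.15 and TRIM5 0.92. TRIM5 itself did not pass the test with poly(dA:dT) and fell with DMSO (-0.83). For class I molecules the difference was HLA-C 0.91, B2M 0.85 and HLA-B 0.73. With 1 library left out, the interaction p reached 0.0891 for HLA-C and 0.0719 for HLA-B, both highest without siQ61K replicate 2 and over the threshold in 8 of 12 such fits, and 0.057 for STAT2 without siNC replicate 1. WFDC21P gave 1.68, a fitted value of a gene listed at 0 in all 3 siNC libraries with poly(dA:dT).

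The interaction genes at either end of the list were of other kinds. RPL23AP42 (12.01) and FABP5P7 (-7.62) are pseudogenes whose reads can be shared with near-identical copies, and FOXD1-AS1 (10.06) is an antisense gene, whose reads cannot be told apart from its partner's without strand, listed at 0 in all 3 siQ61K libraries with DMSO, so that its value is a fitted one and no bound. FHL1, a protein of muscle fibres, gave 4.26, from 59.5 ± 22.99 TPM with siNC and 5.43 ± 4.15 TPM with siQ61K in DMSO and 40.2 ± 10.9 TPM with siNC and 82.1 ± 41.8 TPM with siQ61K in poly(dA:dT). The unnamed genes AP000879.1 (5.47), AC005912.1 (4.65), AC005339.1 (3.89) and AC004832.3 (3.63) had higher responses with poly(dA:dT), and AC115223.1 (-2.70), AC018638.1 (-2.61) and AP002381.2 (-2.18) lower ones. Lower responses also belonged to MEX3C (-2.60), which encodes an RNA-binding ubiquitin ligase, LSM7 (-2.13), a part of the mRNA decay complex, KMT2D (-2.04), a histone methyltransferase, and MKNK2 (-1.96), a kinase that ERK activates. For FABP5P7, FOXD1-AS1, KMT2D and AC004832.3 the change with poly(dA:dT) alone passed the test with all libraries, but with 1 library left out the adjusted p reached 0.0812, 0.141, 0.115 and 0.0887.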

How the results depend on the processing

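The number of genes called with poly(dA:dT), 3196, kept within 1.5 times of that value in every other setting, from 2175 without siQ61K replicate 2 to 4312 with array weights. With DMSO the call count was 4604, with array weights 7669, and with 1 library left out 3074 to 4967. The interaction count was less steady: 320 after the correction, 1026 with no filter on low values, 5869 with array weights, and 1131 to 3961 with 1 library left out, against 2755. It moved by more than 1.5 times without siNC replicate 1, 2 or siQ61K replicate 1 with DMSO, and without siNC replicate 1, 2 or siQ61K replicate 2, 3 with poly(dA:dT). Of all 3196 genes called with poly(dA:dT), 1723 were called in every leave-one-out fit. Named genes were picked largely for high or low fold changes, so their steadiness does not stand for all calls. Of the 147 named genes called in the tests, 139 were called in every leave-one-out fit and in every other setting tried, and no named gene reversed. The exceptions were CCND1, CD274, IRF9, KMT2D, FABP5P7, FOXD1-AS1, AC004832.3 and, with a pseudocount of 0.1 only, AP000879.1. For CCND1, CD274 and IRF9 the adjusted p with no filter was 0.0948, 0.113 and 0.0502. CCND1 also missed the threshold with quantile normalization (0.0639) and with no variance trend (0.0544), and CD274 when only the 6 poly(dA:dT) libraries were fitted (0.0665). In the other direction, APOL2, EPHB2, CTSD, LDHA and AC005912.1 passed after the correction, GBP2 with median-of-ratios scaling, and CDKN1B and VIM with quantile normalization. Among lists, the G1 genes that fell numbered 7, but 4 after median-of-ratios scaling and 3 after quantile normalization. Where a mean of at least 5 TPM was asked for, fewer members of 2 lists were tested. Of T-cell chemokines and checkpoint ligands 2 of 8 then rose, against 6 of 13. Of acute-phase and complement genes 5 of 9 rose, against 10 of 15. The cause of these shifts was not tested. TPM gives no read depth, so what a low value can show is unknown.

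The replicate numbers were not taken to pair the libraries, because the labels give no shared source and 1 of the 3 correlations was under 0.1. Deviations from the group means correlated at 0.123, 0.0679 and 0.110 for numbers 1, 2 and 3, although every library correlated best with its own number, which is a hint from the data and not from the design. That held for the 6 poly(dA:dT) libraries. Over all 4 groups the correlations of libraries with the same number ranged from -0.303 to 0.153 for number 1. They ranged from -0.205 to 0.0679 for number 2 and from -0.188 to 0.291 for number 3. With the replicate block 3018 genes were called with poly(dA:dT), and with the block and the GC and length correction together 3773. The block gave 216 interaction genes after the correction. With the block, the adjusted p of CD274 was 0.0537 and that of SPRED2 0.031, and no other named gene changed side.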

Other observations

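Regulators of cell death moved in both directions with poly(dA:dT). Of 14 measured BCL2 family genes 6 fell and 2 rose, against 14.1% and 9.42% of all genes tested. Of the 14, 1 passed the filter only through the siQ61K libraries. MCL1, which protects cells from death, had 282 ± 34.9 TPM with siNC and 175 ± 19.7 TPM with siQ61K (log2 fold change -0.68 with SE 0.13, adjusted p = 0.00211), and BCL2A1, a related protector, 27.9 ± 1.84 TPM with siNC and 11.8 ± 3.34 TPM with siQ61K (log2 fold change -1.20 with SE 0.21, adjusted p = 0.00125). PMAIP1, or NOXA, which opposes MCL1, had 43.7 ± 2.503 TPM with siNC and 70.4 ± 7.83 TPM with siQ61K (log2 fold change 0.67 with SE 0.15, adjusted p = 0.00549). The number that fell was 3 without siNC replicate 1 or siQ61K replicate 3 and 2 without siQ61K replicate 2, and 4 rose after the GC and length correction.

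Of the genes in 4 further lists, set beside 23.5% of all genes tested, the following passed the test. Of 13 measured subunits of RNA polymerase III, which can copy poly(dA:dT), 2 rose and 1 fell. The number that rose was 5 after the GC and length correction, under quantile normalization and under median-of-ratios scaling, and 4 without siQ61K replicate 1. POLR3D had 34.2 ± 4.44 TPM with siNC and 20.1 ± 2.69 TPM with siQ61K (log2 fold change -0.74 with SE 0.13, adjusted p = 0.00155). Of 32 measured ribosome biogenesis genes 1 rose and 3 fell, while 3 rose after the correction. NPM1, the abundant nucleolar protein, had 2614 ± 84.6 TPM with siNC and 2616 ± 201 TPM with siQ61K (log2 fold change 0.00, adjusted p = 0.993). In the 36 measured nuclear genes of oxidative phosphorylation 1 rose and 2 fell. Without siQ61K replicate 1 these numbers were 4 and 7. With another library left out 0 to 2 rose and 1 to 2 fell, with 0 higher without siNC replicate 1, siNC replicate 2 or siQ61K replicate 3 and 1 lower without siNC replicate 1, siNC replicate 2 or siQ61K replicate 2. COX8A, a subunit of cytochrome oxidase, had 785 ± 130.3 TPM with siNC and 482 ± 59.8 TPM with siQ61K (log2 fold change -0.70 with SE 0.14, adjusted p = 0.00329). Of 23 measured collagen chains and processing enzymes 4 rose and 2 fell, with 2 higher without siNC replicate 2, 6 lower without siQ61K replicate 1 and 1 lower without siNC replicate 2 or 3 or siQ61K replicate 2 or 3. COL13A1, a membrane-spanning collagen, fell from 108, 84.2 and 83.9 TPM to 36.2, 21.8 and 31.2 TPM (log2 fold change -1.62 with SE 0.17, adjusted p = 2.87e-05).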
